A study of Anguilla japonica with 6 samples.

Results

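The testes of 3 farmed male Japanese eels (Anguilla japonica) are described here on their own, as the 3 libraries labelled testis among the 6 of the series. The fish were at the silver stage, when eels leave fresh water. Their gonads had differentiated but were immature, and no fish had received hormone. Each library came from 1 male, and the other 3 libraries were ovaries of females of the same stage. RNA was taken from whole tissue, so fewer cells of a type and less RNA per cell cannot be told apart. The fish are called testis 1, testis 2 and testis 3 after their labels, which give no order and no batch. The values lie on 35011 full-length transcripts read by PacBio Iso-seq, of which 12462 were built from testis and 22549 from ovary long reads. Transcripts were summed by the gene symbol of their vertebrate protein hit, which gave 9262 genes with a symbol, and the 3937 transcripts without one were kept single. These 13199 units are called genes in what follows, and since the 3 testes form 1 group no test was run on them.

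In a fish testis, germ cells develop in cysts formed by Sertoli cells. Spermatogonia divide by mitosis, spermatocytes pair and recombine their chromosomes in meiosis, and spermatids build a flagellum, while Leydig cells between the cysts make androgens. In the eel the testis stays at the spermatogonial stage until a hormone such as gonadotropin starts the later steps, which made this fish a classic model for the induction of spermatogenesis. PIWI proteins and their small RNAs silence transposons in the germ line throughout.

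The testis libraries held 13616804, 13330256 and 11913969 estimated counts, and 12465, 12631 and 12486 genes had a count above 0 in testis 1, testis 2 and testis 3. Testis 1 stood apart. The median absolute difference of a gene, on the log2(FPKM + 1) scale, was 0.76 between testis 1 and testis 2 and 0.80 between testis 1 and testis 3, against 0.37 between testis 2 and testis 3. Of the 11557 genes with a mean of at least 1 FPKM, 47.6% were highest in testis 1, 23.3% in testis 2 and 29.1% in testis 3. The median gene of testis 1 was 0.15 above the other testes in FPKM, 0.80 above them when FPKM were rescaled to the same sum in each library, and 0.02 above them after scaling by the size factors of the counts. Class differences between fish are therefore given relative to the median of all genes. Transcript length moved with this difference: genes outside the ribosome whose longest transcript was under 1000 bases had a median of -0.20 in testis 1 against the other testes (198 genes), and those of at least 4000 bases had 0.64 (2103 genes). The part of length in the differences below was not tested, and values against genes of like length are given beside them.

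The 4 marker genes of the testis were all detected in every fish. The Sertoli and germ cell regulator dmrt1, which directs testis development, stood at 55.1, 60.5 and 85.5 FPKM in testis 1, testis 2 and testis 3. A testis-built transcript of 1610 bases with a dmrt1-like protein hit carries no symbol and is not in that sum. It stood at 3.10, 63.3 and 307 FPKM, so the dmrt1 level and rank hold for the symbol only. The germ-line RNA helicase ddx4 (vasa) stood at 1099.7, 834 and 924 FPKM. The synaptonemal complex protein sycp3 stood at 363, 145 and 218 FPKM, and the meiotic recombinase dmc1 at 90.8, 49.6 and 57.6 FPKM. By mean level ddx4 ranked 109 among the 9262 genes with a symbol, sycp3 ranked 264, dmrt1 1135 and dmc1 1163. Their detection does not by itself tell testis from ovary, since no ovary values of these genes are set beside them here. Transcripts of genes used in meiosis were counted in all 3 fish.

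Counts were spread over more genes in testis 1 than in testis 2 and testis 3. A total of 691 genes held 50% of the counts of testis 1, 241 those of testis 2 and 332 those of testis 3. The 10 most counted genes of each library held 7.18%, 12.3% and 9.50% of its counts, a mean of 9.67% ± 2.57 (SD, n = 3), and the 100 most counted held 24.3%, 41.4% and 37.1%, a mean of 34.3% ± 8.93 (SD, n = 3). These units include transcripts that matched ribosomal RNA, and with those left out the 10 most counted held 7.27%, 8.56% and 7.55% and the 100 most counted 24.0%, 37.8% and 34.4%. At the other end, 10072 genes reached 1 FPKM in each of the 3 testes, 802 had a mean of at least 100 FPKM and 111 a mean of at least 1000 FPKM.

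**Figure D1:**
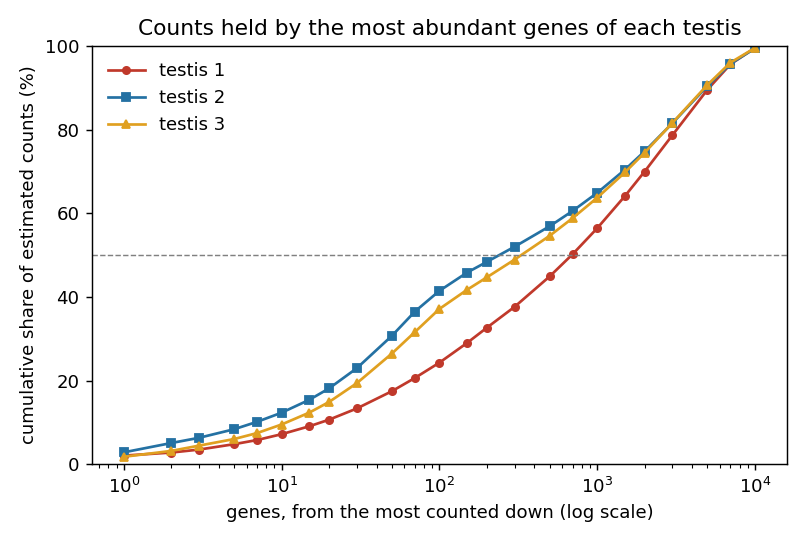
Cumulative share of estimated counts (percent) against the number of genes taken from the most counted down (log scale), for each testis; the dashed line marks 50%. The curve of testis 1 reaches 50% last, with 691 genes needed, against 241 and 332 in testis 2 and testis 3.

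Among genes with a symbol, all 20 with the highest mean FPKM coded for cytosolic ribosomal proteins, the proteins that build the translating ribosome. Genes of that class held 48 of the first 50 places and 68 of the first 100 in that ranking. The acidic stalk protein rplp2 led it with 9479, 35088 and 43655 FPKM in testis 1, testis 2 and testis 3. It was followed by rps21 with 2612, 21865 and 26375 FPKM, rpl27a with 4641, 17276 and 24306 FPKM, and rps27a with 6447, 19096 and 20402 FPKM. Testis 1 was the lowest of the 3 in each of these 4. Further genes of the first 20 were rpl35, rps20, rps15a, rpl36, rps12, rpl30, rplp1, rps25, rps14, rpl15, rpl26, rps29, rpl23 and rpl31, with means from 9676 to 14496 FPKM. Of all units, a transcript of 425 bases without a symbol, at 12209, 24132 and 75714 FPKM, had a higher mean than rplp2.

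The rank of the shortest of these genes rests on the length used. The deposited FPKM divide by a length that is, at the median transcript, about 250 to 259 bases below the full one, so that short transcripts gain. The only transcript of rps21 is 195 bases long, shorter than that median difference, which thus cannot hold for it. It carried 74, 598 and 597 counts in testis 1, testis 2 and testis 3. Counted per kilobase of full length, rps21 ranked 290 instead of 2, while rplp2 stayed at 1. By that measure all of the first 20 genes were again ribosomal, and 12 were the same.

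All 73 ribosomal protein genes had a mean of at least 1 FPKM, and 72 of at least 100 FPKM. Of all 9262 genes with a symbol, 8815 reached a mean of 1 FPKM and 711 of 100 FPKM. Together the 73 genes took 9.86% of the counts of testis 1, 25.3% of testis 2 and 23.5% of testis 3, a mean of 19.5% ± 8.43 (SD, n = 3), or 24.4% over testis 2 and testis 3. None of the 73 was highest in testis 1, where 47.6% of all genes were, and 36 were highest in testis 2 and 37 in testis 3. The median ratio of testis 2 to testis 1 was 2.70, with 72 genes above 1, and that of testis 3 to testis 1 was 2.55, with 70 above 1. Against all genes the class median of testis 1 was -1.57 on the log2(FPKM + 1) scale, and against genes of like length it was -1.13. The 62 proteins of the mitochondrial ribosome took 0.324%, 0.264% and 0.324% of counts. Of them 24 were highest in testis 1, 6 in testis 2 and 32 in testis 3, against 47.6%, 23.3% and 29.1% of all genes.

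Translation factors, which start and carry out protein synthesis, held a nearly equal share of all counts in the 3 fish. Their 61 genes took 3.25%, 2.94% and 2.996% of counts in testis 1, testis 2 and testis 3, a mean of 3.06% ± 0.164 (SD, n = 3). Of the counts outside ribosomal proteins and ribosomal RNA matches they took 3.65%, 4.34% and 4.205%, so testis 1 was then lowest instead of highest. Elongation factor eef1a, which brings aminoacyl-tRNA to the ribosome, stood at 3064, 2474 and 3083 FPKM, and eif5a, which eases peptide bond formation, at 1437, 1413 and 1748 FPKM. Within the class eef1b, the exchange factor of eef1a, was spread more widely, with 1545, 3281 and 5254 FPKM. The translationally controlled protein tpt1 had 1181, 1473 and 2386 FPKM, in the same order of fish. The class median lay within 0.04 of that of all genes in every testis.

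Outside the ribosome the most abundant genes with a symbol included several of mitochondria, microtubules and translation, and the egg envelope genes zp4 and zp3. Stathmin stmn1, a regulator of microtubule growth, had 5154, 4689 and 5180 FPKM and was the fourth of them by mean level. The nascent chain factors btf3, with 1805, 5653 and 3511 FPKM, and naca, with 1533, 3958 and 4411 FPKM, were lowest in testis 1, as ribosomal proteins were. The RNA-binding protein cirbp-b stood at 2827, 1337 and 3415 FPKM. Of the germ-line lists, ddx4 came first, at place 40 among these genes.

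Several abundant transcripts matched ribosomal RNA in the nucleotide database, including some that carried a protein symbol. In all 11 transcripts matched nuclear and 27 mitochondrial ribosomal RNA genes, and 5 of these 38 had been given a symbol. A transcript of 2230 bases labelled zp3, the egg envelope glycoprotein, matched the large ribosomal RNA and held 551, 6322 and 3937 FPKM in testis 1, testis 2 and testis 3. It made up 96.4%, 48.3% and 94.0% of the zp3 sum, which was 572, 13099 and 4189.9 FPKM with it and 20.4, 6777 and 253 FPKM without it. The symbol nlrc3, an innate immune regulator, summed to 1914, 2216 and 4739 FPKM with its 3 transcripts matched to the small ribosomal RNA and to 33.9, 57.8 and 36.1 FPKM without them. These transcripts were kept apart from all symbols here. The nuclear ones took 1.11%, 6.97% and 5.20% of counts, lowest in testis 1, and they took 5.79%, 2.82% and 0.385% in the 3 ovaries.

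The egg envelope genes, which build the coat of the oocyte, separated testis 2 from the other fish. With the ribosomal RNA match set aside, the 4 genes took 0.00602% of the counts of testis 1, 2.12% of testis 2 and 0.0699% of testis 3. Their mean was 0.732% ± 1.20 (SD, n = 3), and 0.0379% without testis 2. The genes zp4, zp3 and zp1 stood at 8649, 6777 and 877 FPKM in testis 2. In testis 1 they stood at 12.1, 20.4 and 0 FPKM, and in testis 3 at 189, 253 and 15.5 FPKM. The ovaries gave them 20.4%, 19.3% and 22.4% of counts, so the share of testis 2 was 10.2% of the mean share of the ovaries, that of testis 1 0.0290% and that of testis 3 0.337%. The other oocyte genes moved in part with them: 14 of 19 with a mean of at least 1 FPKM were highest in testis 2, against 23.3% of all genes, among them zar1 at 11.2, 147 and 37.7 FPKM and nobox at 0.300, 7.71 and 2.95 FPKM. The growth factors gdf9 and bmp15 of the oocyte stood at 2.06 and 4.77 FPKM in testis 2 and at most 0.840 and 4.13 FPKM in the other testes. The oocyte list also holds eef1ao, an elongation factor 1-alpha form named for the oocyte, whose 680, 1115 and 664 FPKM in the testes lay above its 80.5, 85.9 and 43.4 FPKM in the ovaries. The part of oocytes, or of RNA from ovary libraries, in the values of testis 2 was not tested.

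Over all 9262 genes with a symbol, 1460 fell into the functional classes used here and 7802 into none. The latter took 52.6%, 39.7% and 42.8% of counts, and transcripts without a symbol 7.16%, 7.97% and 9.89%. Ribosomal proteins and nuclear ribosomal RNA matches together took 10.97%, 32.2% and 28.7% of counts. Less was thus left for all other classes in testis 2 and testis 3. Of the counts outside ribosomal proteins and ribosomal RNA matches, symbols in no class took 59.2%, 58.6% and 60.03%. After ribosomal proteins and ribosomal RNA matches, the largest classes by mean share were translation factors, the proteins encoded by the mitochondrial genome, splicing factors with 2.31% ± 0.264 (SD, n = 3), and chaperones with 1.73% ± 0.354 (SD, n = 3). The classes listed as germ-line, from germ cell maintenance to the spermatid, together took 3.68%, 1.75% and 1.69% of counts. That sum includes genes of the flagellum and of motile cilia, with 1.25%, 0.377% and 0.326%, whose cell of origin was not tested.

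**Figure D2:**
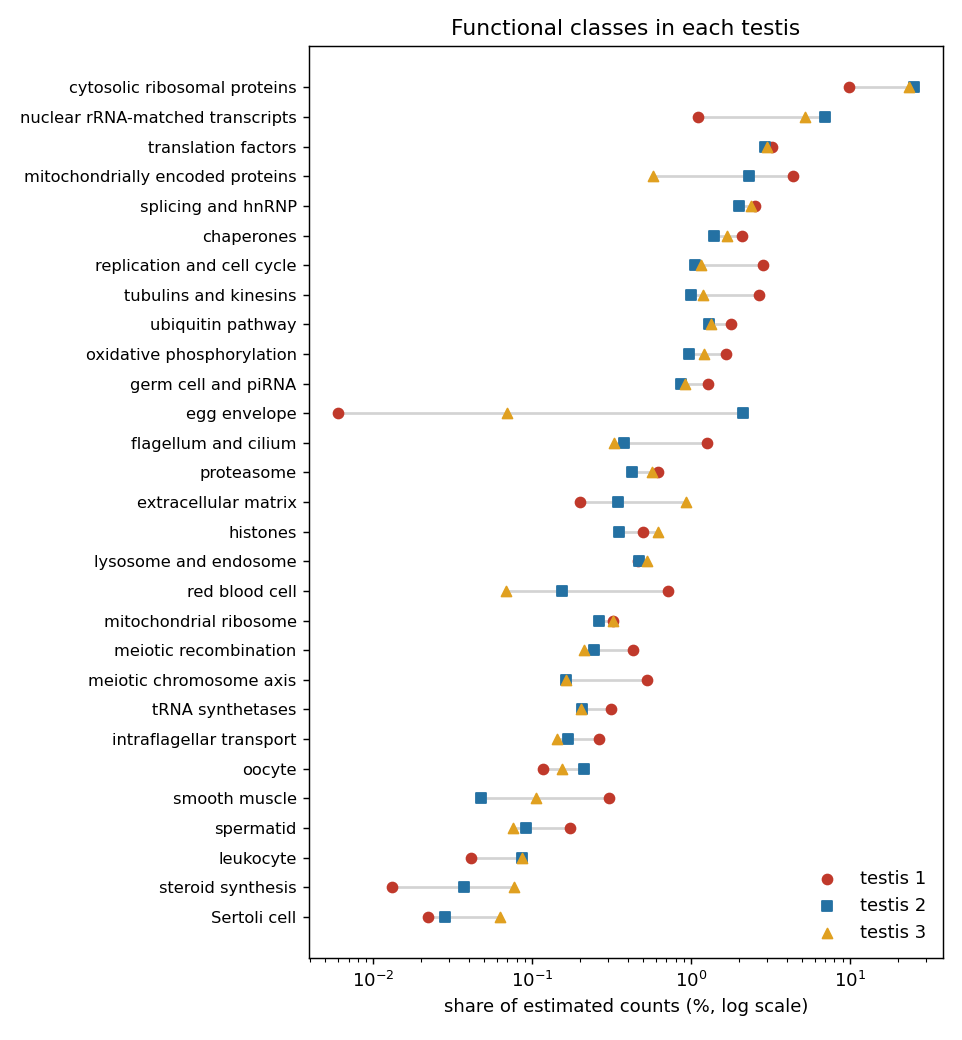
Share of estimated counts (percent, log scale) of each functional class in testis 1, testis 2 and testis 3, ordered by the mean share; grey lines join the lowest and highest fish. Egg envelope genes span 0.00602% to 2.12%, while translation factors span 2.94% to 3.25%.

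The 8 detected genes of the mitochondrial genome, which code for subunits of the respiratory chain and of the ATP synthase, differed widely between fish. They took 4.36%, 2.32% and 0.577% of counts in testis 1, testis 2 and testis 3, a mean of 2.42% ± 1.90 (SD, n = 3), or 1.45% without testis 1. The cytochrome oxidase subunit mt-co3 stood at 11208, 7048 and 2637 FPKM, mt-co1 at 9471, 5124 and 1055 FPKM and mt-cyb at 5618, 3365 and 458 FPKM, so that testis 3 was lowest and testis 1 highest in each. The NADH dehydrogenase subunits were spread further, with mt-nd1 at 2087, 37.3 and 11.4 FPKM and mt-nd2 at 1995, 40.8 and 7.66 FPKM. The ATP synthase subunit mt-atp6 was the exception, with 8205, 9645 and 2625 FPKM. All 8 genes were lower in testis 3 than in testis 2, at a median ratio of 0.277. The mitochondrial ribosomal RNA matches were also highest in testis 1, at 0.110%, 0.0224% and 0.0217% of counts.

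The 63 nuclear genes of oxidative phosphorylation did not share that spread. They took 1.65%, 0.975% and 1.21% of counts, and their median in testis 3 was 0.21 above all genes, while that of the mitochondrial genome was 2.85 below. The ATP synthase subunits atp5b, at 2270, 879 and 1314 FPKM, and atp5a1, at 2026, 1134 and 1110 FPKM, were the most abundant. Against genes of like length the median of testis 3 was -0.17, so its sign depended on that reference.

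Genes of germ cell identity and of the piRNA pathway had a median SD between fish of 0.42 on the log2(FPKM + 1) scale, against 0.61 to 1.05 in the other germ-line classes. Of 26 listed, 24 had a mean of at least 1 FPKM, 22 of at least 10 FPKM and 13 of at least 100 FPKM. Of all 9262 genes with a symbol, 8815 reached a mean of 1 FPKM, 5894 of 10 FPKM and 711 of 100 FPKM. The 26 listed genes took 1.29%, 0.865% and 0.917% of counts, a mean of 1.02% ± 0.232 (SD, n = 3). The PIWI proteins piwil1, at 783, 326 and 420 FPKM, and piwil2, at 239, 256 and 271 FPKM, bind the small RNAs. The translational regulator dazl, needed for germ cell development, stood at 468, 359 and 298 FPKM. The piRNA cofactors fkbp6, at 326, 236 and 452 FPKM, and asz1, at 208, 232 and 194 FPKM, had different highest fish. The class median of testis 1 was 0.25 above all genes and 0.14 above genes of like length.

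Some of the Tudor proteins, scaffolds of the germ granule, did not follow that pattern. The level of tdrd1 was 173, 106 and 145.8 FPKM and that of tdrd9 was 128, 204 and 125 FPKM. By contrast tdrd7 stood at 77.3, 3.50 and 4.08 FPKM and tdrd6 at 135, 28.9 and 17.1 FPKM, with testis 1 far above both others. The tdrd7 level rests on 1 testis-built transcript. A testis-built transcript of 1844 bases without a symbol, whose protein hit is tdrd6, had 102.5, 185 and 263.9 FPKM, lowest in testis 1. That transcript is not in the tdrd6 sum, so the order given for tdrd6 holds for the symbol only. Among genes of undifferentiated germ cells, nanos1 stood at 0.580, 9.73 and 13.9 FPKM and nanos3 at 0, 3.11 and 2.01 FPKM, lowest in testis 1. The pluripotency factor sall4 had 16.2, 13.2 and 22.4 FPKM, and lin28b stayed below 1 FPKM in every fish.

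**Figure D3:**
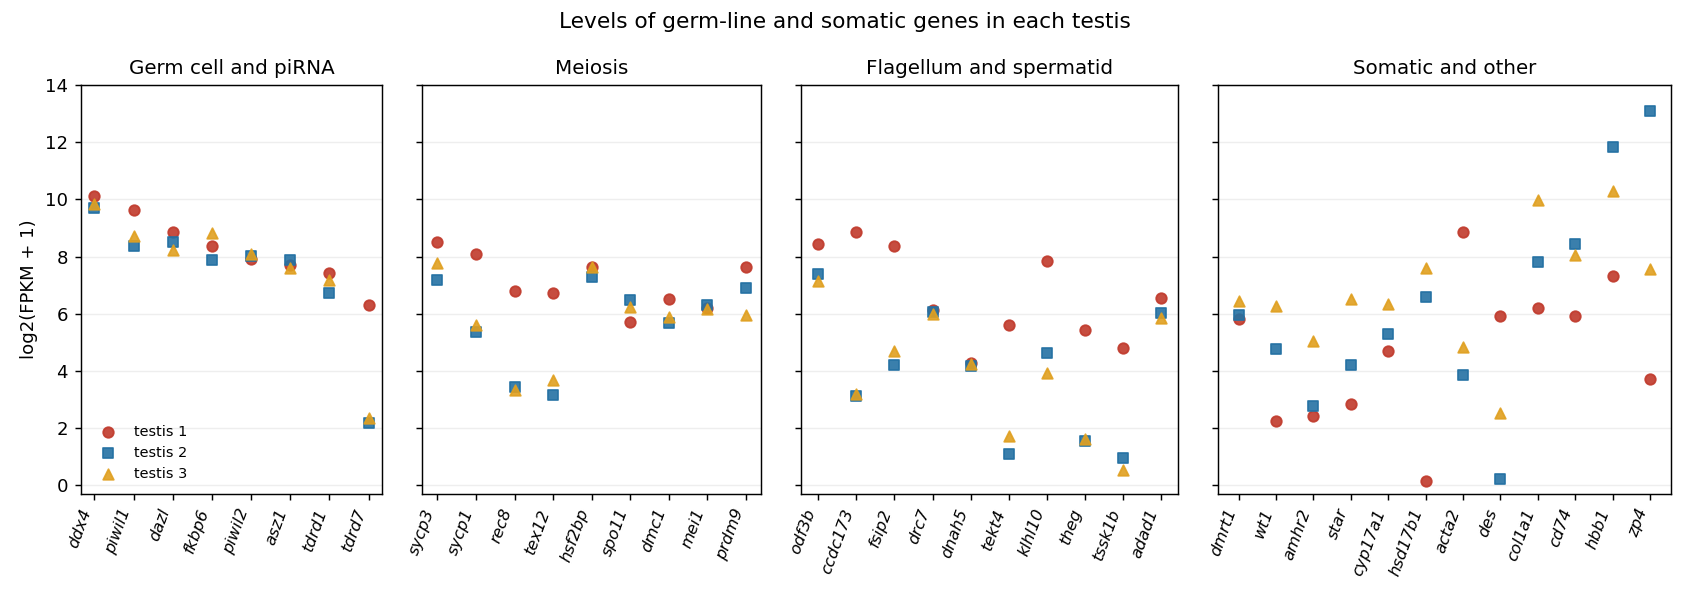
Level of germ cell, meiosis, flagellum and spermatid, and somatic or other genes in each testis, as log2(FPKM + 1), with 1 point per fish. Points of ddx4, hsf2bp and drc7 lie close together, while testis 1 is above the others for rec8, ccdc173 and tekt4 and below them for wt1, star and zp4.

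Genes of meiosis were read in all 3 testes, and all 19 of the chromosome axis and all 36 of recombination had a mean of at least 1 FPKM. That level was also reached by 8815 of all 9262 genes with a symbol, so it does not set these lists apart. The axis genes took 0.532%, 0.165% and 0.163% of counts, a mean of 0.286% ± 0.212 (SD, n = 3), or 0.164% without testis 1. Of these 19, 15 were highest in testis 1, where 47.6% of all genes were, and 4 in testis 2. The transverse filament protein sycp1 stood at 273, 40.1 and 47.6 FPKM, the meiotic cohesin rec8 at 110, 9.95 and 9.17 FPKM, and the cohesin smc1b at 226, 72.3 and 86.6 FPKM. The central element protein tex12, at 105, 7.88 and 11.9 FPKM, and majin, which tethers telomeres to the nuclear envelope, at 76.0, 5.85 and 6.89 FPKM, were likewise highest in testis 1. The HORMA-domain protein hormad1, which marks unpaired axes, had 201, 74.1 and 99.9 FPKM.

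The axis list is wider than the chromosome axis itself, and not every member followed that order. Of the 19 members, 4 were higher in testis 2 than in testis 1 and 2 were higher in testis 3. Only 1 member in each comparison had a ratio of at least 2, of 333 for testis 2 and 131.5 for testis 3. These ratios were taken without a pseudocount, so a level near 0 in testis 1 makes them large. The entry factor stra8, which retinoic acid induces as germ cells go into meiosis, stood at 23.7, 37.1 and 32.7 FPKM, lowest in testis 1. The central element protein syce3 stood at 94.9, 120 and 82.3 FPKM and the telomere protein terb2 at 53.4, 73.0 and 43.9 FPKM, highest in testis 2. The meiotic entry regulators meioc, at 78.2, 14.6 and 10.1 FPKM, and ythdc2, at 66.7, 9.94 and 10.5 FPKM, were again highest in testis 1.

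Recombination genes took 0.431%, 0.247% and 0.212% of counts, a mean of 0.297% ± 0.117 (SD, n = 3), and 30 of 36 were highest in testis 1, against 47.6% of all genes, 5 in testis 2 and 1 in testis 3. Some members were nearly level or lowest in testis 1. The enzyme spo11, which makes the DNA breaks that start recombination, stood at 50.9, 88.7 and 75.0 FPKM. Its partner mei1 stood at 71.7, 77.5 and 71.6 FPKM, and the brca2 partner hsf2bp at 196, 154 and 196 FPKM. The histone methyltransferase prdm9, which places the breaks in mammals, had 196, 117 and 61.1 FPKM and its reader zcwpw1 had 147, 36.1 and 44.9 FPKM. The recombinase cofactor psmc3ip, at 260, 112 and 141 FPKM, and trip13, which removes axis proteins, at 44.7, 7.55 and 14.3 FPKM, were highest in testis 1. The repair protein brca2 had 10.2, 1.72 and 0.840 FPKM. The class median of testis 1 was 0.85 above all genes and 0.69 above genes of like length, and that of the axis genes 1.11 and 1.10.

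Genes of the flagellum and of motile cilia differed between fish in an almost uniform direction. Of 93 listed, 91 had a mean of at least 1 FPKM, as did 8815 of all 9262 genes with a symbol. Of these 91, 86 were highest in testis 1, against 47.6% of all genes, 1 in testis 2 and 4 in testis 3. The 93 genes took 1.25%, 0.377% and 0.326% of counts, a mean of 0.652% ± 0.522 (SD, n = 3), or 0.351% without testis 1. The median ratio of testis 1 to testis 2 was 2.81 and that of testis 1 to testis 3 was 3.76, while testis 3 to testis 2 was 0.947. Their class median in testis 1 was 1.49 above all genes and 1.29 above genes of like length. Testis 1 was above testis 2 in 87 of these genes and above testis 3 in 86. The axonemal dynein dnah12, at 0.0400, 24.5 and 15.3 FPKM, was an exception.

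The size of that difference varied by gene. The microtubule protein ccdc173 stood at 464, 7.67 and 8.11 FPKM, the fibrous sheath protein fsip2 at 333, 17.3 and 24.9 FPKM, and the tektin tekt4, a filament of the axoneme, at 48.3, 1.16 and 2.32 FPKM. The axonemal dynein dnah7 had 158, 31.3 and 19.7 FPKM. Others differed less, as the dynein regulatory complex subunit drc7 at 68.4, 66.3 and 62.8 FPKM, the outer arm dynein dnah5 at 18.2, 16.9 and 17.8 FPKM, and the light chain dynlrb1 at 113, 115 and 158 FPKM. The most abundant of the class, odf3b, a shippo repeat protein, had 345, 167 and 140 FPKM. The 32 genes of intraflagellar transport, which carries cargo along the growing axoneme, took 0.266%, 0.169% and 0.144% of counts, and 23 of them were highest in testis 1, against 47.6% of all genes. Among them ift46 stood at 256, 192 and 141 FPKM, and ift52 at 34.97, 41.1 and 39.6 FPKM.

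All 18 genes of the spermatid list had a mean of at least 1 FPKM, as did 8815 of all 9262 genes with a symbol. The 18 genes took 0.173%, 0.0921% and 0.0754% of counts. Of these, 12 were highest in testis 1, against 47.6% of all genes, 4 in testis 2 and 2 in testis 3. The kelch protein klhl10, needed for spermatid maturation in the mouse, stood at 227, 23.5 and 14.2 FPKM, theg at 42.6, 1.92 and 2.10 FPKM, and the spermatid kinase tssk1b at 26.7, 0.950 and 0.440 FPKM. The RNA-binding proteins adad1 and adad2 stood at 91.9, 63.4 and 56.4 FPKM and at 133, 80.2 and 189 FPKM, and their highest fish differed. The germ-line cyclin ccna1 had its own order, with 74.5, 181 and 8.79 FPKM. Of 16 other symbols of late spermatids searched by name, among them prm1, tnp1, odf1, akap4, acr, izumo1 and catsper1, 0 matched a transcript, which says only that no transcript carries these names.

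Sertoli cell and steroid genes took small shares of counts and were mostly highest in testis 3. Their median gene had a mean of 13.3 and 11.4 FPKM, against 13.7 FPKM for symbols in no class. The 8 Sertoli cell genes took 0.0221%, 0.0281% and 0.0625% of counts, and of the 7 with a mean of at least 1 FPKM, 6 were highest in testis 3, against 29.1% of all genes. The tight junction protein cldn11 stood at 56.2, 38.6 and 141 FPKM, the transcription factor wt1 at 3.77, 26.5 and 75.3 FPKM, and the receptor of anti-Müllerian hormone, amhr2, at 4.42, 5.88 and 32.4 FPKM. The dmrt1 values above are counted in this list. The Sertoli share rests on the list as corrected after levels were seen. Its mean was 0.0376% of counts, against 0.133% with the list as first written.

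Steroid genes took 0.0132%, 0.0375% and 0.0770% of counts, and 6 of 9 with a mean of at least 1 FPKM were highest in testis 3, against 29.1% of all genes. The cholesterol carrier star, which feeds the first step of synthesis, stood at 6.12, 17.6 and 91.4 FPKM. The enzyme cyp17a1, which makes androgen precursors, stood at 25.2, 38.1 and 79.9 FPKM, and hsd17b1, which reduces sex steroids, at 0.110, 95.3 and 193 FPKM. The enzyme hsd11b2, needed for the fish androgen 11-ketotestosterone, had 14.4, 9.18 and 33.2 FPKM. The class median in testis 3 was 1.42 above all genes and 1.41 above genes of like length.

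Matrix and muscle genes differed between fish in opposite ways. Of 51 matrix genes with a mean of at least 1 FPKM, the collagens col1a1, at 73.1, 224 and 1005 FPKM, and col1a2, at 48.3, 87.6 and 247 FPKM, led with sparc, a collagen-binding protein, at 53.4, 119 and 551 FPKM, and the proteoglycan dcn at 47.7, 41.5 and 198 FPKM. The matrix list took 0.201%, 0.348% and 0.932% of counts, highest in testis 3. Smooth muscle genes took 0.304%, 0.0480% and 0.106% of counts, and 14 of 17 were highest in testis 1, against 47.6% of all genes. The smooth muscle actin acta2 stood at 468, 13.6 and 27.8 FPKM and its partner tagln at 241, 28.2 and 116 FPKM. The cardiac actin actc1 stood at 213, 0.260 and 1.05 FPKM and desmin des at 59.1, 0.160 and 4.83 FPKM. The muscle genes were thus highest in the fish whose meiotic and flagellar genes were highest, and the part of duct or other muscle tissue in testis 1 was not tested.

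Blood and immune markers gave no single order. The haemoglobin beta chain hbb1 stood at 160, 3679 and 1267 FPKM and the haem synthesis enzyme alas2 at 3.17, 39.6 and 12.2 FPKM, highest in testis 2. Of the same list, the carbonic anhydrase cahz had 3723, 81.0 and 132 FPKM, in the opposite order. Of 17 leukocyte genes with a mean of at least 1 FPKM, 4 were highest in testis 1, 5 in testis 2 and 8 in testis 3, against 47.6%, 23.3% and 29.1% of all genes. The antigen-presentation chain cd74 stood at 59.8, 343 and 266 FPKM and the cathepsin ctss at 9.46, 80.8 and 48.2 FPKM, lowest in testis 1. The macrophage protein cd68 stood at 0.990, 6.68 and 45.9 FPKM, and the T cell chain cd3e at 10.4, 0.270 and 0.190 FPKM. Endothelial genes were near the floor, with vwf at 4.12, 7.46 and 8.35 FPKM. The metal-binding protein mta had 362, 3399 and 3137 FPKM.

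Genes of DNA replication and the cell cycle took 2.84%, 1.06% and 1.16% of counts, a mean of 1.69% ± 0.999 (SD, n = 3), or 1.11% without testis 1. Of 137 with a mean of at least 1 FPKM, 112 were highest in testis 1, against 47.6% of all genes. The replication clamp pcna stood at 1599.6, 105 and 224 FPKM, and the helicase subunits mcm2 at 462, 268 and 326 FPKM and mcm5 at 399, 142 and 190.2 FPKM. Tubulins tuba1c, at 5133, 799.9 and 1070.2 FPKM, and tubb4b, at 5043, 1019 and 2066 FPKM, were also highest in testis 1, while stmn1 was level. Histone variants divided: h2afv, at 2695, 452 and 944 FPKM, and h2afz, at 1899, 591 and 1115 FPKM, were highest in testis 1, whereas the linker histone h1fx, at 502, 1174 and 2301 FPKM, was highest in testis 3.

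**Figure D4:**
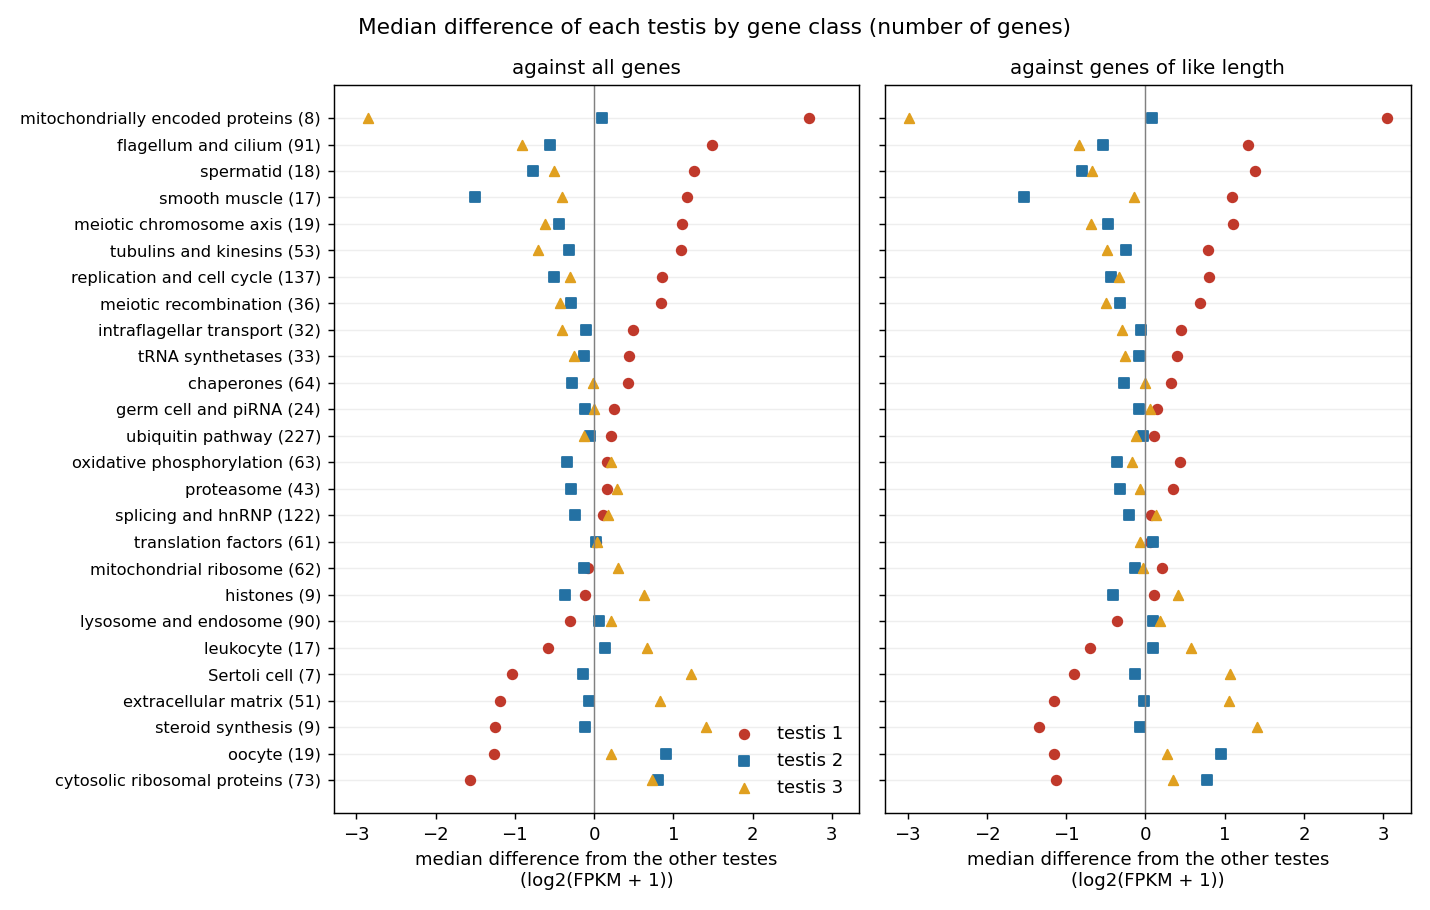
Median over the genes of each class of the difference of a testis from the mean of the other testes, on the log2(FPKM + 1) scale, relative to all genes (left) and to genes of like length (right); the number of genes stands in brackets. Flagellum genes of testis 1 lie at 1.49 and 1.29, and ribosomal proteins at -1.57 and -1.13.

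The classes fell into a few orders of fish. Relative to all genes, testis 1 was highest by median for flagellum, spermatid, smooth muscle, axis, tubulin, replication and recombination genes, with values from 0.85 to 1.49, and for the mitochondrial genome, with 2.71. It was lowest for ribosomal, oocyte, steroid, matrix, Sertoli and leukocyte genes, with values from -1.57 to -0.58. Among lists of only 4 genes it was also lowest by median for egg envelope, red blood cell and metal genes, with -6.43, -2.36 and -1.36. By share of counts the red blood cell list was instead highest in testis 1, at 0.718%, 0.153% and 0.0690% in testis 1, testis 2 and testis 3. Of its 4 genes only 1 was highest in testis 1, cahz with 3723 FPKM there, and 3 were highest in testis 2. All of these medians kept their sign against genes of like length. Rescaling a library nearly cancels in a difference relative to the median of all genes, so it could hardly change these signs. Without that reference, FPKM rescaled to equal sums gave testis 1 medians of -0.70 for ribosomal and -0.24 for Sertoli genes. Of the classes named above as lowest in testis 1, only leukocyte genes then turned positive, at 0.22. Lysosome and endosome genes and transposable element genes were also lowest in testis 1, at -0.31 and -0.42 relative to all genes. They too turned positive, at 0.52 and 0.32, so smaller deficits of testis 1 depended on the scaling. The histones of testis 1, at -0.11, and the mitochondrial ribosome, at -0.07, turned to 0.11 and 0.21 against genes of like length. Testis 3 was highest by median for steroid, Sertoli and matrix genes, with 1.42, 1.23 and 0.83, and lowest for the mitochondrial genome.

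Over all 11557 genes with a mean of at least 1 FPKM, the median SD between the 3 testes was 0.55 on the log2(FPKM + 1) scale, and 0.27 over testis 2 and testis 3 alone. The range between the highest and lowest fish was at least 2 on this scale for 18.5% of genes. That share was 47.3% of flagellum genes, 42.1% of axis genes, 24.1% of replication genes and 16.7% of germ cell genes, against 11.1% of recombination, 4.92% of translation factor, 2.33% of proteasome and 1.61% of mitochondrial ribosome genes.

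Among genes with a symbol and a mean of at least 100 FPKM, 8 were named for the smallest SD between fish. The mitochondrial ribosomal protein mrps18b stood at 111, 110.0 and 112 FPKM, an SD of 0.01 on the log2 scale, and the translation repressor eif4ebp1 at 140.3, 137 and 139 FPKM. The chromatin protein mbd3 had 445, 426 and 423 FPKM and the nuclear pore protein tpr 121, 129 and 124 FPKM. The remaining 4 were cops7a, ahcy-b, eif4b and srrt, with an SD of at most 0.07. The 8 with the largest SD were zp1, zp4 and cirbp, with 4.91, 4.71 and 4.21, then zp3 with 4.17, and mt-nd2, mt-nd1, hsp30 and ccdc173, with 4.04 down to 3.30. Some transcripts without a symbol had larger SDs, of up to 6.36. The small heat shock protein hsp30 stood at 2.56, 70.2 and 346 FPKM. The cold-inducible cirbp, at 56.3, 288 and 0 FPKM, shares its protein name with cirbp-b, and reads common to both can be split between them.

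The leading transcript of a gene is the one with its highest level, so every gene has one and its share cannot fall below an even split. Of 6228 genes with at least 2 transcripts, a mean of at least 1 FPKM and a level above 0 in every fish, the leading transcript held a median of 57.4%, 59.1% and 61.3% of the level in testis 1, testis 2 and testis 3, a mean of 59.3% ± 1.94 (SD, n = 3). The share was 73.5% with 2 transcripts, where an even split would give 50%, 59.1% with 3 to 4, 47.3% with 5 to 9 and 37.1% with 10 or more. The median even split was 33.3% with 3 to 4, 16.7% with 5 to 9 and 8.33% with 10 or more. Leading shares were highest for atp5b, whose transcript of 1730 bases held 97.2%, 99.4% and 99.6%, and for naca, with 87.8%, 94.9% and 97.1%. The remaining genes of that rule were ssrp1, gadd45g, gabarap and psmb6. Leading shares were lowest for znf180 and znf665, zinc finger proteins with 42 and 35 transcripts, whose leading transcript held at most 14.6% and 13.7%, followed by zp4, srsf2, pim1 and supt16h.

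The leading transcript often differed between fish. It was the same in all 3 testes for 2310 genes, or 37.1%, and a different one in each fish for 11.6%. Testis 2 and testis 3 shared it for 68.1% of genes, testis 1 and testis 2 for 47.1%, and testis 1 and testis 3 for 47.4%. Where transcripts of a gene differing by at most 50 bases in length were merged, all 3 testes shared it for 45.1% and testis 2 and testis 3 for 73.5%. The share of genes with the same leader fell with the number of transcripts, from 54.5% with 2 to 16.2% with 10 or more. By class it was 75.0% of 32 ribosomal protein genes, against 23.8% of 21 germ cell genes, 27.9% of 61 flagellum genes and 21.4% of 42 tubulin and kinesin genes.

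The tissue whose long reads gave the transcript moved with this. Of 4330 genes with transcripts of both origins, the leader was testis-built for 82.3% in testis 1, 47.6% in testis 2 and 45.7% in testis 3. On average 41.9% of the transcripts of these genes were testis-built. Testis-built transcripts took 63.4%, 51.3% and 50.2% of all counts. Which males gave the long reads is not stated in the labels, so its part in the difference was not tested. The mean transcript length of a gene had no net shift between fish. Its median signed log2 ratio, in which gains and losses cancel, was -0.00185 for testis 1 to testis 2 and -0.00225 for testis 1 to testis 3, over 5442 genes. Single genes could still differ: of 3296 genes whose leader differed between testis 1 and testis 2, the 2 leaders were within 50 bases for 14.9%.

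The helicase ddx4 shows a steady sum over changing transcripts. Of its 15 transcripts, a testis-built one of 2735 bases held 39.3% of the level in testis 1, with 432 FPKM, and 0 in both others. An ovary-built one of 2736 bases held 3.61%, 0.494% and 43.8%. The lengths of these transcripts differ by 1 base, and no label or header tells how reads common to such transcripts were divided. A further one of 2694 bases held 32.4%, 45.99% and 33.3%. In piwil1 an ovary-built transcript of 3896 bases held 8.99%, 54.5% and 75.3% and a testis-built one of 2778 bases 39.4%, 9.06% and 1.79%, so testis 1 stood apart from both others. In sycp3 no transcript held more than 34.4% in any fish. In hsf2bp the 2 transcripts kept their shares, with 62.2%, 62.6% and 59.5% on the longer one of 1921 bases.

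Abundant genes differed in transcript shares too. In stmn1, whose sum was level, a transcript of 1307 bases led in all 3 testes, with 23.5%, 82.4% and 42.4%. In the chaperone hspa8 a transcript of 2366 bases held 7.93%, 77.4% and 50.2%, and another led in testis 1. In rpl10 a transcript of 732 bases held 99.9% of testis 2 and 10.8% and 11.7% of testis 1 and testis 3. One of 737 bases held 88.5%, 0.00909% and 88.2% in testis 1, testis 2 and testis 3. These 2 lie within the 50 bases used for merging, and how their common reads were divided is not stated. In rpl27a the transcript of 446 bases held 0 in testis 1 and 48.6% and 69.3% in the others. The remaining genes that lacked a common leader among the most abundant were rplp2, mt-atp6, rpl19 and rps16.

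**Figure D5:**
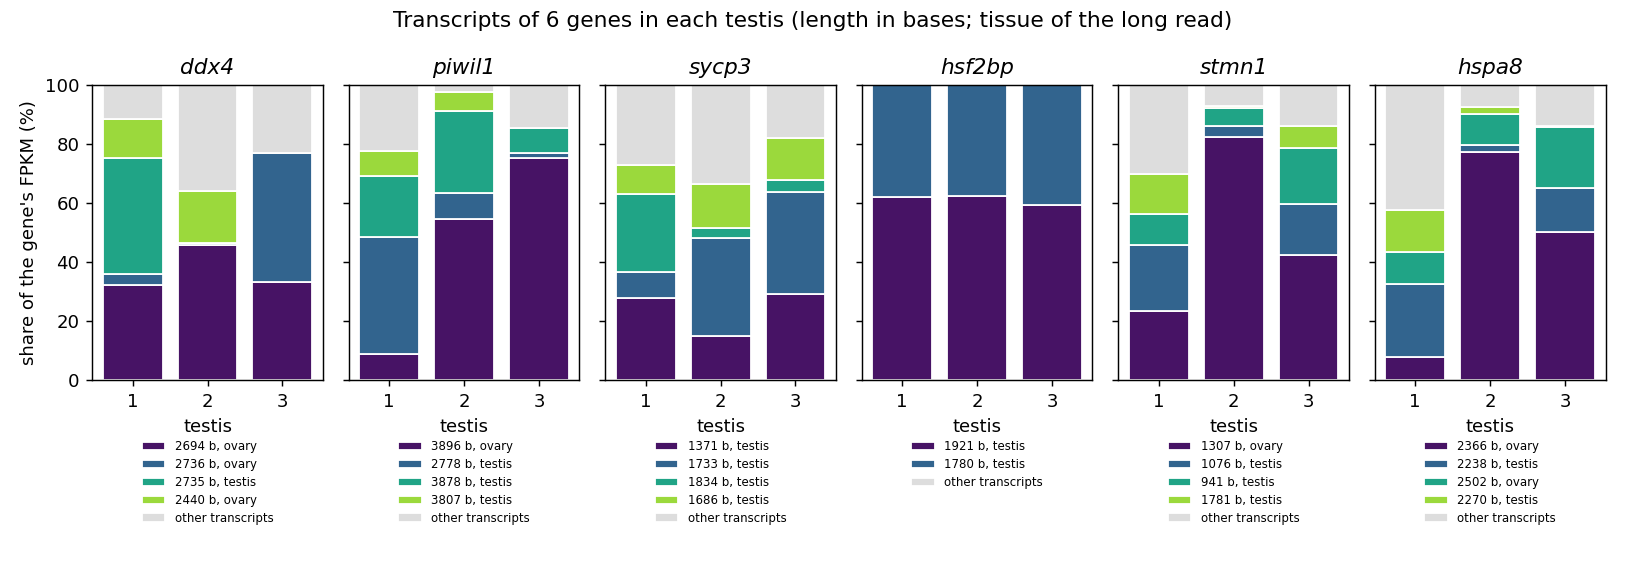
Share of each gene's summed FPKM (percent) held by its 4 most abundant transcripts and by all others in testis 1, testis 2 and testis 3, for ddx4, piwil1, sycp3, hsf2bp, stmn1 and hspa8; the legend gives length in bases and the tissue of the long read. Only hsf2bp keeps nearly the same shares in all fish, with 62.2%, 62.6% and 59.5% on its longer transcript.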

How the data were processed

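Short-read libraries of 3 testes and 3 ovaries were made from TRIzol-extracted RNA with the NEBNext Ultra kit and read on an Illumina machine, per the labels' protocols. The submitters' processing notes list featureCounts 1.5.0-p3, HISAT2 2.0.5, CASAVA 1.8 and fastp with no roles. Which program gave the values, and on which build, is not stated in any label or header. Per the file headers, the deposited values are read counts and FPKM per full-length transcript, with its length in bases. The deposited counts are called estimated counts because 28.7% to 31.6% of the testis values were whole. The deposited FPKM were made by the authors, and sum to 770032, 1218425 and 1312673 in testis 1, testis 2 and testis 3. They imply a length 250 to 259 bases below the full one (median of transcripts with over 200 counts). Testis libraries held 11913969 to 13616804 counts, and the error given is the SD over the 3 males, 1 library each.

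Values were summed per vertebrate Swiss-Prot symbol (31079 transcripts). Transcripts whose nucleotide hit is a ribosomal RNA gene were kept out of the sums, a choice made after seeing the data. Classes were lists of symbols, corrected for 60 symbols after levels were seen. The genes, classes and lists were chosen with earlier results of these data known. A difference is log2(FPKM + 1) minus the mean of the other testes, and like length means 20 bins of the longest transcript. The genes named by rule, among those with a symbol, were the 4 markers, the 20 with the highest mean FPKM, 4 per class, the 8 most and 8 least variable at 100 FPKM, and 3 sets of 6 by leading transcript (at least 5 transcripts for the high and low sets). Some genes that this rule names are not reported here. Further class members named in the text were chosen after their values were seen. Alternatives were other minima, pseudocounts, scalings, testis-built transcripts and each fish left out. Python 3.11.15, pandas 2.3.3, numpy 2.4.6 and matplotlib 3.10.9 were used, and the statistics were tested on simulated data.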

Additional observations from a re-analysis of the deposited data

How the results depend on the processing

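No paired analysis was possible because no comparison between groups was tested. As shares of summed FPKM instead of counts, ribosomal proteins took 49.8%, germ cell genes 0.399%, recombination genes 0.150%, the top 10 genes 17.1% and the top 100 genes 63.9%. On testis-built transcripts alone, recombination genes took 0.425% of counts and the leading transcript held 67.97%. Merging transcripts within 50 bases gave 64.0% for the leading transcript. A minimum of 10 FPKM left 7036 genes. With each fish left out in turn, the median SD ran from 0.266 to 0.570, with testis 1 left out giving 0.266. The share of genes with the same leading transcript ran from 47.0% to 68.1%, which was the value without testis 1. Only 2 fish then have to agree, so a share above that of all 3 was largely fixed in advance. With each fish left out, egg envelope genes ran from 0.0379% to 1.10%. They took 1.44% with the ribosomal RNA matches kept, an alternative chosen after seeing the data. The merging, the full-length scale, the size factors, the like-length reference and the comparison with the classes as first written were also added after seeing the data. With the classes as first written, the mean share of counts was 0.133% for Sertoli, 0.199% for spermatid and 0.268% for histone genes. With the corrected lists it was 0.0376%, 0.113% and 0.492%. These classes moved by more than their SD between fish, while 23 others and 8 counted among the main results did not. Of 167 named genes, 34 moved by more than their SD between fish on the full-length scale and 6 when rescaled to equal sums. The causes were not tested. With 3 fish, which differ mainly by testis 1, no mean here is precise, and levels under 1 FPKM rest on few counts.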

Other observations

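Some abundant transcripts without a symbol had SDs between fish of up to 6.36 on the log2(FPKM + 1) scale, above the 4.91 of zp1. Those given here were chosen after their values were seen. A pair of testis-built transcripts whose protein hit is a GDF6-B-like growth factor, a signal of the TGF-beta family, stood at 0.700, 20.3 and 1969 FPKM (1803 bases) and at 24.3, 749.8 and 1032 FPKM (1793 bases) in testis 1, testis 2 and testis 3. A testis-built transcript of 1610 bases with a dmrt1-like protein hit stood at 3.10, 63.3 and 307 FPKM, a wider spread than the symbol dmrt1 itself, and in the order of wt1 and amhr2. A transcript of 1321 bases with a hit to a chemokine of the CCL25 kind had 4.35, 71.6 and 356 FPKM, and one of 1143 bases matching eel type I collagen mRNA had 9.28, 211 and 1418 FPKM, in the order of col1a1.

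Highest in testis 1 were a testis-built beta-tubulin transcript of 1495 bases, at 2073 FPKM there and 0 in both others, and one of 1739 bases whose protein hit is a testis-specific alpha-tubulin, at 309.6, 14.7 and 17.4 FPKM. A histone H2B transcript of 494 bases was highest in testis 2, at 2.25, 975 and 44.6 FPKM. A transcript of 425 bases, with no protein hit, had the highest level of all units in testis 3, at 12209, 24132 and 75714 FPKM, from 0.211%, 0.423% and 1.26% of counts.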
